A study of Mus musculus with 8 samples.

Results

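The 47 genes described here encode the subunits of respiratory complexes II, III, IV and V and the carrier cytochrome c. They are the rows of the expression table whose symbol begins with the names of these subunits (Sdha to Sdhd, Uqcr, Cyc1, Cycs, Cox4 to Cox8 and Atp5), 47 of the 14608 genes listed. Complex II has 4 of them, complex III 9, complex IV 16 and complex V 17, and Cycs stands alone. RNA-seq was run on outflow tract (OFT), the part of the embryonic heart that connects the ventricles to the great vessels, at embryonic day 11.5. There are 4 libraries labelled control and 4 labelled Mib1V943F/+ Gata6STOP/+, each from pooled material. The design text gives 4 pairs of samples with 3 individuals per pool, whereas the methods of the study describe 3 pools of 4 pairs of OFT per genotype, so both the number of pools and their size are uncertain. In the second group, embryos carried on opposite chromosomes 1 copy of a missense allele of Mib1, the ubiquitin ligase that activates NOTCH ligands, and 1 copy of a null allele of Gata6, a cardiac transcription factor. Both are germline alleles, and the study describes the Mib1 allele as dominant negative. The controls are titled WT and have the genotype Control, with no further description. No library with 1 allele alone was analysed here, so the effects of the alleles cannot be told apart.

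Complex II (succinate dehydrogenase) and complex III pass electrons through ubiquinone and cytochrome c to complex IV, which reduces oxygen, and the proton gradient built on the way drives complex V, the ATP synthase. All subunits of complex II are encoded in the nucleus, while complexes III, IV and V combine nuclear subunits with a few encoded in mitochondrial DNA. Contracting cardiomyocytes are rich in mitochondria and use muscle forms of some complex IV subunits next to the forms found in all tissues.

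Values are CPM (counts per unit of library size, which the authors scaled by the TMM method), and differences are log2 fold changes on log2(CPM + 0.5), mutant-labelled minus control-labelled, tested with limma. Of the mutated genes, Gata6 was read at 236, 279, 271 and 261 CPM (control-labelled) and 213, 284, 276 and 224 CPM (mutant-labelled), in the order of replicates 1 to 4 that is kept for all values given here. Its log2 fold change was -0.08 (SE 0.10), with a limma p-value of 0.752 after Benjamini-Hochberg adjustment. Mib1 was at 138, 107, 109.9 and 132 CPM against 123, 137, 123 and 126 CPM. Both genes overlapped between the groups, so their level does not separate them and the directions given here rest on the labels, for which the groups are called control-labelled and mutant-labelled. Reads on listed genes numbered between 10669420 (control-labelled replicate 2) and 30469165. No gene of the 14608 had an adjusted p-value under 0.05 (0% called), and the smallest limma p-value after Benjamini-Hochberg adjustment was 0.124. A count model, the kind of test named in the methods of the study, was not run here and can call a different number. In limma, 967 lower and 796 higher genes had an unadjusted p-value under 0.05. Nothing in the labels gives separate litters, and the p-values measure the spread between these pools.

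All 47 genes of complexes II to V had a lower mean log2 level in the mutant-labelled libraries, against 49.6% of all genes. The genes were chosen with earlier results of these data known. Most had their highest value in the same few libraries, so they are not 47 independent observations. The difference was small for each gene. Their log2 fold changes ran from -0.50 (Cox8b) to -0.08 (Cox7a2l), with a median of -0.25 or 15.7% lower, where the median of all 14608 genes was 0.00. In 32 of the 47 the unadjusted p-value was under 0.05, which held in the same direction for 6.62% of all genes. In 27 of the 47 every mutant-labelled library was below every control-labelled library, which held for 3.9% of all genes, and in none was every mutant-labelled library higher (3.2% of all genes). None of the 47 passed the adjusted threshold, and their Benjamini-Hochberg adjusted p-values in limma ran from 0.204 to 0.607. The genes lie on 19 chromosomes, 6 of them on chromosome 7 and 1 of them (Atp5a1) on chromosome 18, which holds Mib1 and Gata6. In bulk tissue, fewer cells of a type and less RNA per cell cannot be told apart.

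**Figure D1:**
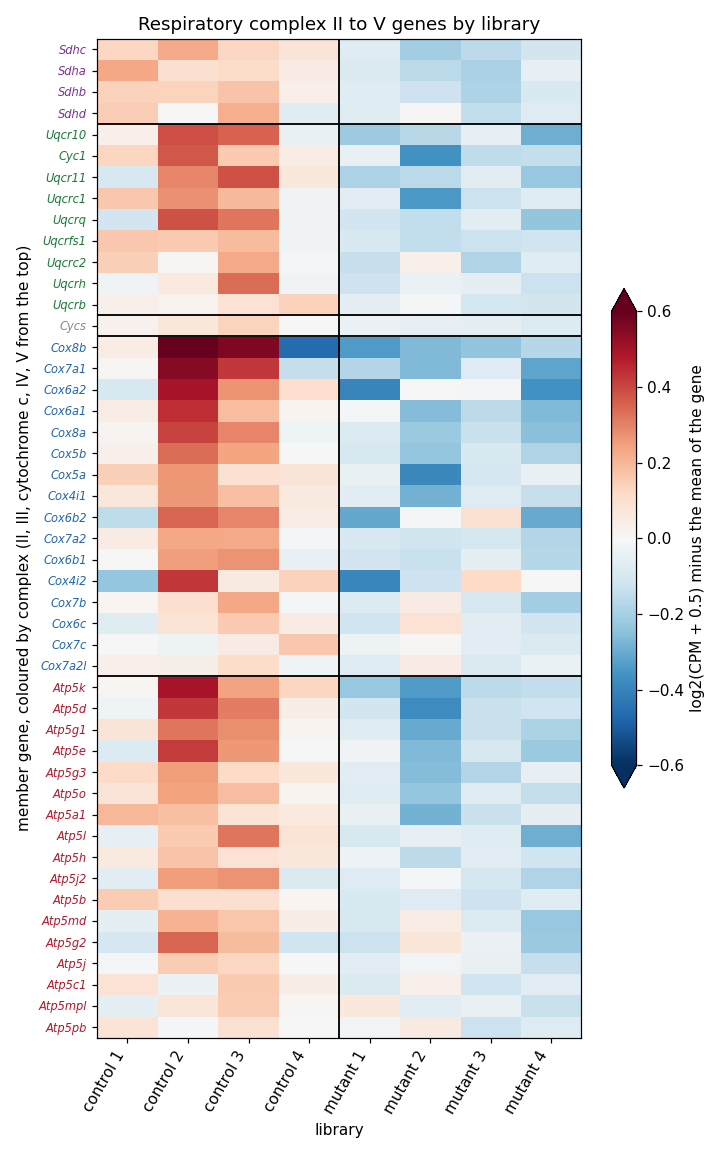
Level of each of the 47 genes in each library, as log2(CPM + 0.5) minus the mean of the gene over the 8 libraries (colour, with the end colours also given to deviations past the scale), for control-labelled replicates 1 to 4 and mutant-labelled replicates 1 to 4. Control-labelled replicates 2 and 3 hold the darkest red, control-labelled replicates 1 and 4 are near the mean for most genes, and the mutant-labelled columns are mostly blue.

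The control-labelled libraries were not alike. Of the 47 genes, 26 had their highest value of all libraries in control-labelled replicate 2 and 16 in control-labelled replicate 3, against 3 and 2 in control-labelled replicates 1 and 4. The lowest value of all libraries was in a mutant-labelled library for 46 genes, 19 of them in replicate 4 and 15 in replicate 2. The exception was Cox8b, lowest in control-labelled replicate 4. Summed over the 47 genes, the level was 11679, 12432, 12239 and 11106 CPM in the control-labelled libraries and 10359, 9929.9, 10094 and 10125 CPM in the mutant-labelled libraries, without overlap. Control-labelled replicate 2, the highest in this sum, was also the library with the fewest reads. Without it, 47 genes were still lower and 30 had an unadjusted p-value under 0.05.

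Many promoters of respiratory chain genes are known for sites of NRF1 and of the ETS factor GABPA, which activate these genes. Of the 47 genes, 36 had a promoter in the RefSeq table of GRCm38.p6 (250 bases before to 50 bases after the start, the first promoter listed for each gene). A core of the NRF1 motif (GCGCA, any base, then GCGC) was found on either strand in 9 of the 36 (25%), against 4.78% of all 27025 promoters and 10.2% of the 10773 promoters of genes listed in the expression table. The ETS letters CCGGAAGT were in 4 of the 36 (11.1%, against 8.08% of the promoters of listed genes), the E-box letters CACGTG in 4 (11.1% against 10.2%) and the YY1 letters AAGATGGC in 2 (5.56% against 4.59%). These counts describe letters only, and 20 of the 36 windows held none of the motifs. The 250 bases before the start are printed for the 4 genes with a promoter whose unadjusted p-values were smallest, 5′ to 3′ on the strand of the gene, with motif matches in capitals. The capitals mark an NRF1 core in Atp5k, beginning at position -50 from the start, and E-boxes in Atp5g1 (at -44) and Atp5g3 (at -238), while Sdhb has no match. Motifs were counted separately and may overlap. Atp5g3 has a further NRF1 core at 12, past the printed bases.
Atp5k (chr5:108434400-108434649, minus strand): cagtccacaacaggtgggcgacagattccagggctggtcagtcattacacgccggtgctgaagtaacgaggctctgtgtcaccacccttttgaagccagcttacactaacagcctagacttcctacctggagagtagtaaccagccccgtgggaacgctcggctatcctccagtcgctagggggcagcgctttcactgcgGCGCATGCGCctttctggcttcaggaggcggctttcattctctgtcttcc
Atp5g1 (chr11:96075632-96075881, minus strand): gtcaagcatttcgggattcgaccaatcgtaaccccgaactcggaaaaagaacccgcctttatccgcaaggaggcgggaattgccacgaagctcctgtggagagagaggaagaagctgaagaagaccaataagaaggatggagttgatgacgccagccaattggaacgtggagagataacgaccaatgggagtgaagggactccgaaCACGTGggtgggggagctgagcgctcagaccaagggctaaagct
Sdhb (chr4:140961021-140961270, plus strand): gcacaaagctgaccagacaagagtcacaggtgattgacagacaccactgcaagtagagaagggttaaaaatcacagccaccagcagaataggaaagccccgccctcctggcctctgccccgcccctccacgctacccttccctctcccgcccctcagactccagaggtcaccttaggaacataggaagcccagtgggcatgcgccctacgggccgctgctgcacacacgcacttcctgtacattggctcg
Atp5g3 (chr2:73911327-73911576, minus strand): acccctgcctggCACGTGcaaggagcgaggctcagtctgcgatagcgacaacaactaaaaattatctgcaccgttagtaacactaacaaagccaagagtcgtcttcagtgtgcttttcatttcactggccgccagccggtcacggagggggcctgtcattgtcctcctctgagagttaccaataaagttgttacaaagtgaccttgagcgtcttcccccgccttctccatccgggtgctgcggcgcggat

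Complex II links the citric acid cycle to the respiratory chain, and 3 of its 4 genes separated the groups. Its median log2 fold change was -0.24. Sdhc (GRCm38 chromosome 1, 171127165 to 171150603), a membrane anchor, was at 175, 187, 174 and 169 CPM (control-labelled) and 152, 138, 143 and 148 CPM (mutant-labelled). Its means (± SD over 4 libraries) were 176 ± 7.75 against 146 ± 6.003 CPM, 17.4% lower on the log2 scale used (-0.28, 95% interval -0.41 to -0.14). With Atp5k it had the smallest adjusted p-value of the 47 genes (0.204 in limma). Sdha (chromosome 13, 74322254 to 74350280), the flavoprotein that oxidizes succinate, was at 439, 399, 403 and 386 CPM against 352, 334, 326 and 361 CPM (log2 fold change -0.24). Sdhb, which carries the iron-sulphur clusters, was at 192, 191, 196 and 178 CPM against 166, 159.8, 153 and 163 CPM (log2 fold change -0.24). In these 3 genes no mutant-labelled library reached the lowest control-labelled one, which held for 3.9% of all genes. Sdhd, the other membrane anchor, had a log2 fold change of -0.15 (95% interval -0.31 to 0.02) with overlapping groups, since mutant-labelled replicate 2 (176 CPM) was above control-labelled replicates 2 and 4 (175 and 167 CPM).

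Complex III had a median log2 fold change of -0.28 or 17.7% lower. The complexes were not tested against each other, and the order of their medians changed with the library left out. Without control-labelled replicate 1, the median of complex V (-0.24) was below that of complex II (-0.22). After removal of the trend with GC content and length, the medians of complexes II to V lay between -0.23 and -0.21. Of the 9 genes of complex III, 8 had an unadjusted p-value under 0.05 (6.62% of all genes, lower) and 6 did not overlap (3.9% of all genes, lower). Cyc1 (chromosome 15, 76343523 to 76346260), the cytochrome c1 subunit that hands electrons to cytochrome c, was at 271, 320.1, 276 and 255 CPM (control-labelled) and 240.05, 192, 223 and 224 CPM (mutant-labelled). Its means (± SD over 4 libraries) were 280.5 ± 27.7 against 219.7 ± 20.1 CPM, and its log2 fold change was -0.35 (95% interval -0.54 to -0.16, limma adjusted p = 0.228). The highest library was control-labelled replicate 2 and the lowest mutant-labelled replicate 2, and the groups did not overlap. Uqcrfs1 (chromosome 13, 30540308 to 30545362), the Rieske iron-sulphur protein, was at 215, 215, 219 and 189 CPM against 181, 174, 176 and 177 CPM, and control-labelled replicate 4 stood below the other control-labelled libraries. Uqcrc1, a core protein, was at 337, 364, 344 and 297 CPM against 288, 237, 275 and 286 CPM. Its partner Uqcrc2 was at 333, 303, 354 and 299 CPM against 274, 309, 267 and 287 CPM. Uqcrc1 separated the groups (log2 fold change -0.30), whereas in Uqcrc2 (-0.18) mutant-labelled replicate 2 lay above control-labelled replicates 2 and 4.

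Among the small subunits of complex III, Uqcr10 (chromosome 11, 4701973 to 4704342) was at 96.7, 124, 121 and 91.7 CPM against 81.2, 84.4, 91.4 and 77.1 CPM, and its log2 fold change of -0.36 was the lowest in the complex. Uqcr11 was at 68.01, 89.05, 95.04 and 76.04 CPM against 63.9, 64.9, 69.2 and 62.1 CPM (log2 fold change -0.32). Uqcrq was at 86.03, 122, 117 and 92.1 CPM against 86.04, 84.2, 89.4 and 79.2 CPM (log2 fold change -0.28). In both, control-labelled replicates 2 and 3 were high and control-labelled replicate 1 fell within the range of the mutant-labelled libraries. Uqcrb and Uqcrh, with log2 fold changes of -0.14 and -0.17, did not overlap, although the unadjusted p-value of Uqcrh was 0.0534 in limma. For Cycs (chromosome 6, 50562563 to 50566538), the soluble cytochrome c, the values were 138, 143, 149 and 136 CPM against 132, 131, 130.3 and 128 CPM. These groups did not overlap either, with means (± SD over 4 libraries) of 141 ± 5.69 against 131 ± 1.84 CPM and one of the smaller differences, -0.11 (95% interval -0.24 to 0.01).

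**Figure D2:**
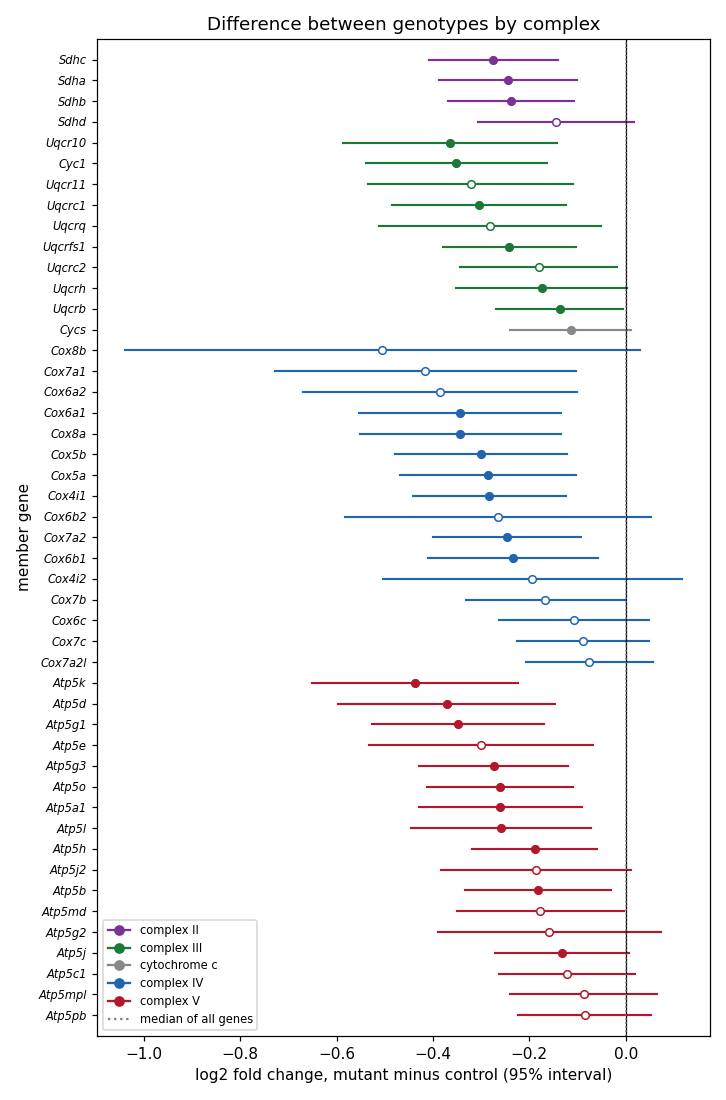
Log2 fold change (mutant-labelled minus control-labelled, x axis) of each of the 47 genes (y axis) with its 95% interval from limma, coloured by complex, with filled circles where the groups do not overlap and open circles where they do. Every circle lies left of 0 and of the dotted median of all genes, and 32 of the 47 intervals lie wholly below 0.

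In complex IV, the 16 genes had a median log2 fold change of -0.27 or 17.3% lower. Of the 16, 10 had an unadjusted p-value under 0.05 (6.62% of all genes, lower) and 7 did not overlap (3.9% of all genes, lower). Cox4i1 (chromosome 8, 120668222 to 120674207), the regulatory subunit found in all tissues, was at 371, 423, 400.4 and 368 CPM (control-labelled) and 338, 289.96, 335 and 320.4 CPM (mutant-labelled). Its means (± SD over 4 libraries) were 390.3 ± 26.2 against 321 ± 21.9 CPM, and the log2 fold change was -0.28 (95% interval -0.44 to -0.12, limma adjusted p = 0.236). No mutant-labelled library reached the lowest control-labelled one. Cox5a, a subunit on the matrix side, was at 175, 190.3, 169 and 167 CPM against 154, 121, 148 and 154 CPM. Cox5b, which binds zinc, was at 168, 207, 193 and 164 CPM against 153, 139, 154 and 145 CPM. Neither gene overlapped, with log2 fold changes of -0.29 and -0.30, and mutant-labelled replicate 2 was the lowest library in both. Cox6b1, which faces the intermembrane space, was at 211, 253, 255 and 205 CPM against 196, 193, 205 and 189 CPM (log2 fold change -0.23), again without overlap. At the other end were Cox6c (-0.11), Cox7c (-0.09) and Cox7a2l (-0.08), a relative of subunit 7a that joins complexes III and IV into supercomplexes. Their groups overlapped, and their 95% intervals include 0 (-0.21 to 0.06 for Cox7a2l). Cox7b, on the X chromosome, had -0.17 with overlapping groups.

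Several subunits of complex IV come in a form common to all tissues and a form of striated muscle. Cox6a1, the common form of subunit 6a, was at 162, 213, 178 and 158 CPM against 156, 131, 140.5 and 131 CPM. Its form in heart and skeletal muscle, Cox6a2, was at 63.4, 95.9, 81.8 and 72.7 CPM against 51.4, 67.96, 67.2 and 52.5 CPM. Cox6a1 separated the groups (log2 fold change -0.34), while in Cox6a2 (-0.39, 95% interval -0.67 to -0.10) control-labelled replicate 1 was below mutant-labelled replicates 2 and 3. Cox7a2, the common form of subunit 7a, was at 129, 146, 145 and 123 CPM against 117, 114, 115 and 109.8 CPM. Its muscle form Cox7a1 was at 16.1, 23.6, 21.7 and 14.5 CPM against 14.1, 13.2, 15.2 and 12.8 CPM. Cox7a2 did not overlap (log2 fold change -0.25), and Cox7a1 (-0.42, 95% interval -0.73 to -0.10) overlapped because control-labelled replicate 4 was below mutant-labelled replicate 3. Cox8a, the common form of subunit 8, was at 187, 245, 226 and 181 CPM against 175, 158, 168 and 155 CPM. Its muscle form Cox8b was at 2.95, 5.59, 4.44 and 1.93 CPM against 2.15, 2.28, 2.34 and 2.48 CPM. Cox8a did not overlap (log2 fold change -0.34), and Cox8b (-0.50, 95% interval -1.04 to 0.03) had both its highest and its lowest library among the controls. Cox8b rested on 46 to 110 reads per library, and its interval includes 0. Cox4i2, a form of subunit 4 known from lung and low oxygen, was at 16.9, 26.8, 20.7 and 21.9 CPM against 15.03, 18.2, 21.6 and 19.9 CPM with a log2 fold change of -0.19 and overlapping groups. Cox6b2, best known from testis, was at 6.56, 9.48, 9.12 and 7.59 CPM against 5.84, 7.28, 7.87 and 5.86 CPM (-0.27), also with overlap, where its partner Cox6b1 had none.

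The balance of the forms was taken per kb of transcript, as the percentage of the less abundant form in the sum of both. Cox6a2 made up 26.96% ± 1.48 (SD) of subunit 6a in controls and 26.5% ± 3.83 (SD) in mutant-labelled libraries (n = 4 each, two-sided exact permutation p = 0.857). Cox7a1 made up 15.8% ± 1.97 and 14.1% ± 0.721 of subunit 7a (SD, n = 4 each, exact permutation p = 0.2). Cox8b was 2.56% ± 0.762 and 2.11% ± 0.219 of subunit 8 (SD, n = 4 each, exact permutation p = 0.486), and Cox4i2 was 5.38% ± 0.749 and 5.701% ± 0.871 of subunit 4 (SD, n = 4 each, exact permutation p = 0.6). With Benjamini-Hochberg adjustment over these 4 tests, of the log2 ratio of the forms, the exact permutation p-values ran from 0.8 to 0.857. The smallest value that 70 relabellings of 4 against 4 libraries allow is 0.0286, and the groups overlapped in all 4 shares. Leaving out 1 library at a time moved the difference in log2 ratio between -0.14 and 0.08 for subunit 6a and between -0.24 and -0.09 for subunit 7a, so a moderate change of either cannot be told from none at this number of libraries.

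**Figure D3:**
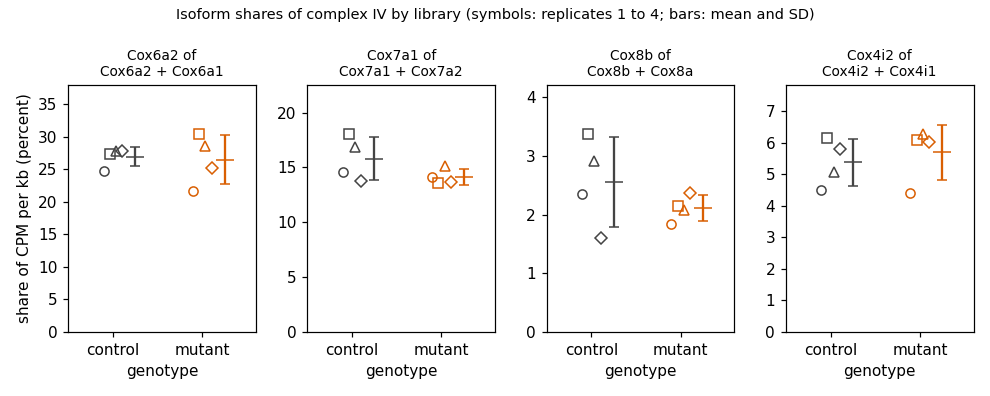
Percentage of the less abundant form in the sum of both forms of complex IV subunits 6a, 7a, 8 and 4 (y axis, from CPM per kb of transcript), in the 4 control-labelled and the 4 mutant-labelled libraries (x axis), with symbols for replicates 1 to 4 and bars for the mean and SD. Cox6a2 averages 27% in controls and 26.5% in mutant-labelled libraries, and the groups overlap in all 4 panels.

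Complex V, the ATP synthase, had 17 genes with a median log2 fold change of -0.19 or 12.3% lower. Of the 17, 11 had an unadjusted p-value under 0.05 (6.62% of all genes, lower) and 10 did not overlap (3.9% of all genes, lower). The F1 head, where ATP is made, includes the genes with the highest CPM of the 47. Atp5b, the catalytic beta subunit (chromosome 10, 128083273 to 128090391), was at 2107, 2035, 2034 and 1917 CPM (control-labelled) and 1785, 1797, 1745 and 1803 CPM (mutant-labelled). Atp5a1, the alpha subunit, was at 1604, 1582, 1479 and 1452 CPM against 1352, 1148, 1273 and 1338 CPM. Both separated the groups, with log2 fold changes of -0.18 and -0.26. For Atp5b the means (± SD over 4 libraries) were 2023 ± 78.8 against 1783 ± 26.3 CPM. Atp5d (chromosome 10, 80138632 to 80145818), the delta subunit of the central stalk, was at 200.04, 274, 253 and 209.5 CPM against 189, 157, 186 and 187 CPM (log2 fold change -0.37, 95% interval -0.60 to -0.15), with mutant-labelled replicate 2 set below the other mutant-labelled libraries. Atp5e (epsilon) and Atp5c1 (gamma) of the same stalk had -0.30 and -0.12 with overlapping groups.

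The c subunit of the proton-carrying ring is encoded by 3 genes with the same mature protein. Atp5g1 was at 176, 209, 203 and 169 CPM (control-labelled) and 159, 135, 152 and 146 CPM (mutant-labelled), with a log2 fold change of -0.35 (SE 0.08, limma adjusted p = 0.214). Atp5g3 was at 473, 520.1, 474 and 457 CPM against 419, 365, 386 and 422 CPM (log2 fold change -0.27). Atp5g2 was at 160.5, 219, 197 and 159 CPM against 158, 181, 168 and 148 CPM (log2 fold change -0.16). Atp5g1 and Atp5g3 separated the groups, and Atp5g2 did not, with control-labelled replicates 1 and 4 inside the range of the mutant-labelled libraries. In the peripheral stalk, Atp5o, the protein that confers oligomycin sensitivity, was at 351, 393, 379 and 337 CPM against 316, 283, 316 and 301 CPM (log2 fold change -0.26) without overlap. Atp5h and Atp5j of the same stalk had -0.19 and -0.13 without overlap, and Atp5pb had -0.09 with overlap. Among the small membrane subunits, Atp5k (subunit e, chromosome 5, 108433244 to 108434448), which helps to pair the enzyme into dimers, was at 56.7, 79.5, 66.7 and 61.6 CPM against 47.9, 44.3, 50.4 and 50.8 CPM. Its means (± SD over 4 libraries) were 66.1 ± 9.804 against 48.4 ± 2.99 CPM, and its log2 fold change -0.44 (95% interval -0.65 to -0.22) was the lowest in complex V, or 26.2% lower. Atp5l (subunit g) had -0.26 without overlap, and Atp5j2, Atp5md and Atp5mpl had -0.19, -0.18 and -0.09 with overlap.

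The subunits of these complexes encoded in mitochondrial DNA showed no common direction that held when control-labelled replicate 2 was left out. Of the 6 genes, 4 had a higher and 2 a lower mean log2 level in the mutant-labelled libraries, with a median log2 fold change of 0.10. In complex V, mt-Atp6 was at 442, 284, 349.6 and 518 CPM (control-labelled) and 554, 557, 450.2 and 594 CPM (mutant-labelled). These groups overlapped (log2 fold change 0.47, limma adjusted p = 0.316, exact two-sided permutation p = 0.0571), and 5.45% of all genes were higher at an unadjusted p-value under 0.05. In complex IV, mt-Co1 was at 11919, 9857, 10994 and 11957 CPM against 11549, 11389, 10353 and 10825 CPM (-0.02), and mt-Co2 and mt-Co3 had 0.15 and 0.31. In complex III, mt-Cytb had 0.05, and mt-Atp8 of complex V had -0.10. Control-labelled replicate 2, high in the nuclear genes, was the lowest library in mt-Atp6, mt-Co1, mt-Co2, mt-Co3 and mt-Cytb. Without it, 2 of the 6 genes were higher and 4 lower, the median log2 fold change was -0.01, mt-Atp6 had 0.32, and mt-Co3 and mt-Cytb both had -0.01. The difference between the nuclear and the mitochondrial subunits was not tested.

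Assembly factors insert the metal centres and subunits of these complexes. All 40 factors on the list had values. In mean log2 level 31 were lower and 9 higher, where 49.6% of all genes were lower. Their median log2 fold change was -0.12. At an unadjusted p-value under 0.05, 5 of the 40 were lower and 1 was higher, where 6.62% and 5.45% of all genes were. Without overlap, 3 of the 40 were lower and 2 higher, where 3.9% and 3.2% of all genes were. Cox17, a copper carrier for complex IV, was at 29.7, 36.8, 32.5 and 30.9 CPM against 24.7, 23.6, 25.97 and 25.3 CPM without overlap (log2 fold change -0.37). Sco2, another copper factor of complex IV, was lower without overlap (-0.22). Fmc1 (-0.42) and Atpaf1 (-0.29), factors of complex V, were lower with overlap. Fastk (-0.20), also lower with overlap, is counted because it is on the list, and these data do not show a role in assembly. Sdhaf3, a factor of complex II, was higher, at 7.96, 4.93, 6.41 and 7.01 CPM against 8.78, 9.71, 8.03 and 8.45 CPM without overlap (0.40). None passed the adjusted threshold (smallest limma adjusted p = 0.204).

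Of 13 regulators of mitochondrial gene expression, 7 were lower and 6 higher, with a median log2 fold change of -0.02. At an unadjusted p-value under 0.05, 2 of the 13 were lower, where 6.62% of all genes were. This count was not tested against that share. Esrra, a nuclear receptor that activates genes of the respiratory chain, was at 47.01, 51.7, 55.7 and 46.1 CPM (control-labelled) and 40.99, 29.4, 41.02 and 39.4 CPM (mutant-labelled), a log2 fold change of -0.41 (95% interval -0.65 to -0.17). Ppargc1b, a coactivator of the same pathway, was at 17.2, 15.8, 16.01 and 12.1 CPM against 11.8, 9.49, 11.2 and 10.1 CPM (-0.50). Neither overlapped (3.9% of all genes were lower without overlap), and neither passed the adjusted threshold (limma adjusted p = 0.2404 and 0.228). The others had overlapping groups. Among them, the coactivator Ppargc1a had -0.15, Nrf1 0.06, Gabpa 0.17 and Tfam, which packages and transcribes mitochondrial DNA, 0.07.

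Markers of cardiomyocytes were lower as well. All 20 markers on the list were lower in the mutant-labelled libraries, with a median log2 fold change of -0.34. Of these markers, 18 had an unadjusted p-value under 0.05 (6.62% of all genes, lower) and 15 did not overlap (3.9% of all genes, lower). Their summed level ran from 33884 to 39409 CPM in controls and from 27544 to 31655 CPM in the mutant-labelled libraries, and none of the markers was at 0 in any library, so the tissue carried heart muscle RNA in every library. Myh7, a myosin heavy chain, was at 10879.5, 10710.1, 10401 and 9458 CPM against 7635, 7229.98, 8041 and 8753 CPM (log2 fold change -0.39), and Tnnt2, cardiac troponin T, at 1835, 1852, 2031 and 1731 CPM against 1496, 1345, 1420.2 and 1565 CPM (-0.35). The libraries did not follow the same order in both sets. The mean log2 deviation of the cardiomyocyte markers was 0.284, 0.222, 0.2697 and 0.0573 in the controls and -0.156, -0.356, -0.293 and -0.0276 in the mutant-labelled libraries. That of the 47 genes was 0.0293, 0.24, 0.208 and 0.0101 against -0.107, -0.132, -0.0966 and -0.151. Control-labelled replicate 1 was thus the highest in this mean of the 20 markers and near the mean in the 47 genes. The marker mean gives each gene equal weight and includes Nppa, which had the lowest log2 fold change of the list (-2.09). Nppa was at 157, 99.1, 122 and 65.9 CPM against 61.9, 5.67, 8.68 and 109 CPM, far lower in mutant-labelled replicates 2 and 3. The order of the libraries without Nppa was not computed. The part of the cardiomyocyte share in the lower respiratory genes was not tested.

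**Figure D4:**
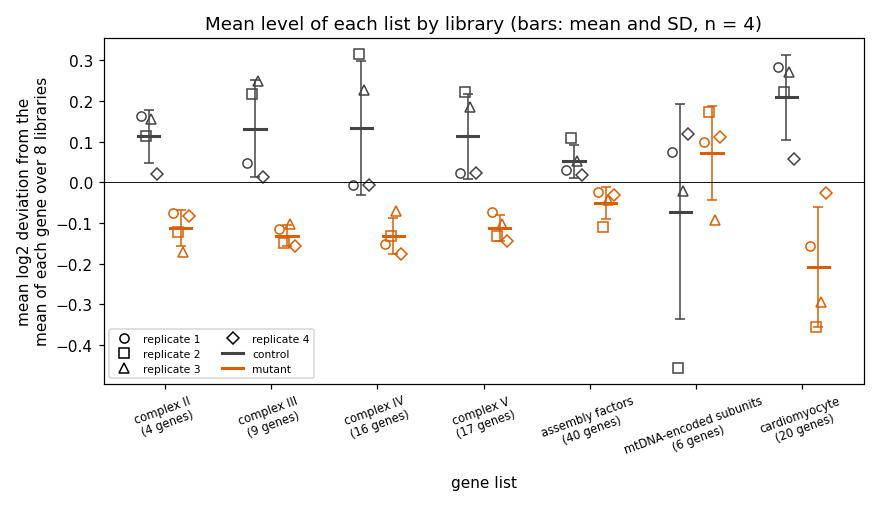
Mean log2 deviation of the genes of a list from their means over the 8 libraries (y axis), for complexes II to V, the assembly factors, the subunits encoded in mitochondrial DNA and the cardiomyocyte markers (x axis), with a symbol per replicate and bars for the mean and SD (n = 4). The 4 complexes, the assembly factors and the cardiomyocyte markers are lower in each mutant-labelled library than in any control-labelled library, while the mitochondrially encoded subunits overlap, with control-labelled replicate 2 lowest at -0.457.

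Markers of other cell types had no single direction. At an unadjusted p-value under 0.05 there were 3 lower and 0 higher of 12 endothelial and endocardial markers, 2 lower and 1 higher of 8 smooth muscle markers, 0 lower and 0 higher of 10 cushion mesenchyme markers and 1 lower and 0 higher of 7 epicardial markers. Neural crest, glia and neuron markers had 0 lower and 2 higher of 7, pharyngeal and second heart field markers 0 lower and 3 higher of 7, macrophage markers 0 lower and 0 higher of 8 and erythroid markers 0 lower and 0 higher of 9. Over all genes 6.62% were lower and 5.45% higher at this threshold, and no list was tested against that share. Median log2 fold changes were -0.09 (endothelial and endocardial), 0.01 (smooth muscle), 0.06 (cushion mesenchyme), 0.10 (epicardial) and 0.01 (neural crest, glia and neurons). For pharyngeal and second heart field markers the median was 0.25, for macrophage markers -0.01 and for erythroid markers 0.22. In the pharyngeal and second heart field list, 6 of 7 were higher, among them Isl1 (0.64, limma adjusted p = 0.142), and Ebf1 was lower (-0.22). Of these lists, 3 neural crest, glia and neuron genes, 2 pharyngeal and second heart field genes and 1 erythroid gene were not among the listed genes. None of the listed markers was at 0 in any library. The summed erythroid level varied most among these lists, from 1786 to 3622 CPM in controls and from 1500.3 to 5479 CPM in the mutant-labelled libraries.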

How the data were processed

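Reads from 8 OFT libraries at embryonic day 11.5 were trimmed with cutadapt and quantified by the authors with RSEM on GRCm38 with Ensembl genes, which divides a read mapping to several genes among them, and the counts were normalized in edgeR. The deposited values are CPM after TMM scaling, and every listed gene reaches 1 CPM in at least 4 libraries, where the methods name 3. All 8 value columns were used and 0 were left out. Read counts were not used here and no count test was run. The data were analysed in R 4.3.3 with limma 3.58.1 (moderated test, all 14608 genes, Benjamini-Hochberg adjustment) on log2(CPM + 0.5). The fit was also run on simulated libraries with counts drawn independently for each gene. Deviations shared by many genes of a library, as seen here, were not simulated, so the simulation does not show how the fit behaves with them. Depth (10669420 to 30469165 reads on listed genes) was read from the CPM steps, since in all 8 libraries 100% of values were whole multiples (within 0.01) of 1 step. Isoform shares were compared with two-sided exact permutation tests. Transcript lengths and coordinates are of GENCODE on GRCm38, and promoters of RefSeq GRCm38.p6. Members and gene lists were chosen with earlier results of these data known. Values in every library were given for up to 6 genes per complex by unadjusted p-value, for isoform families (Cox4i, Cox6a, Cox6b, Cox7a, Cox8, Atp5g) and for Cycs. Uqcrc2, Atp5b, mt-Atp6, mt-Co1, Cox17, Sdhaf3, Esrra, Ppargc1b, Myh7 and Tnnt2 were given them after their values were seen. Other genes of the pathway lists were named where the unadjusted p-value was under 0.05 or the list held at most 13 genes. Genes with pseudogenes or close paralogs (the Atp5g genes) may share reads, and whether the directional libraries were counted by strand is not given in the sources used here. Alternatives covered the pseudocount, a filter at 5 CPM, GC content and length, centring, the replicate block and each library left out.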

Additional observations from a re-analysis of the deposited data

Results flagged for a closer look

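Of 110 groups of 4 libraries examined, 4 held a library whose gap to the others exceeded Dixon's critical share of the range of the group, and chance gives about 1 in 20 such groups. Uqcrfs1 was at 189 CPM in control-labelled replicate 4, where the other control-labelled libraries lay between 215 and 219 CPM. Atp5d was at 157 CPM in mutant-labelled replicate 2, where the others of that group lay between 186 and 189 CPM. Cox6a2 made up 24.8% of subunit 6a in control-labelled replicate 1 and 27.4% to 27.8% in the other controls. Cox4i2 made up 4.4% of subunit 4 in mutant-labelled replicate 1 and between 6.04% and 6.26% in the others of its group.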

How the results depend on the processing

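No alternative called a gene at the adjusted threshold. All 47 genes kept a negative log2 fold change in each setting run (46 of 46 with the filter at 5 CPM), and their number at an unadjusted p-value under 0.05 ran from 27 (without control-labelled replicate 3) to 38 (without mutant-labelled replicate 2) with a library left out and was 39 after removal of the GC and length trend, against 32. Over all genes, the number higher at this threshold (796) was 450 without control-labelled replicate 2, 493 without control-labelled replicate 3 and 1068 without control-labelled replicate 4. After removal of the GC and length trend, the median log2 fold changes were -0.22 (complex II), -0.23 (III), -0.22 (IV) and -0.21 (V). Before removal they were -0.24, -0.28, -0.27 and -0.19, so only that of complex V became larger in size. The difference in the log2 ratio of Cox6a2 to Cox6a1 (-0.04) ran from -0.14 without mutant-labelled replicate 2 to 0.081, the opposite direction, without mutant-labelled replicate 1. Leaving out each library in turn was added for the mitochondrially encoded subunits after seeing the data, and their median log2 fold change (0.10) ran from -0.012 without control-labelled replicate 2, the opposite direction, to 0.17 without control-labelled replicate 1. The causes were not tested. With the replicate block, 29 of the 47 were at an unadjusted p-value under 0.05 and 0 genes were called. Same-numbered libraries did not deviate together (correlations over genes of 0.0349, -0.185, 0.0268 and -0.0454), no control-labelled library correlated best with the mutant-labelled library of its own number, and the design text speaks of pairs without saying what a pair shares, so the numbers were not taken as a pairing. The edgeR quasi-likelihood and likelihood ratio tests and DESeq2 were left out. All values were whole multiples of 1 step in the 8 libraries, but a check that takes the smallest value as 1 read failed in 5 of them and was followed.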
